A study of Mus musculus with 9 samples.

Results

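Gpr35, Gpr84, Hcar2, Gpr65, Gpr183, Ptafr and P2ry6 are 7 G protein-coupled receptors through which white blood cells sense small molecules in their surroundings: acids, oxidised sterols, lipids, nucleotides and tryptophan products. They were picked by gene name out of 54532 genes measured by RNA sequencing of mouse skin, with their values in these same 9 libraries already known. Their own levels and differences are therefore given as a description, with no test. All 7 were found in the table, and 6 of them reached an FPKM of 1 (fragments per kilobase of gene, scaled to a library size: a level per gene length) in at least 3 of the 9 libraries. Gpr84 did not.

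The skin came from wild-type mice in 3 groups of 3 libraries: healthy mice (control), mice given bleomycin, an antitumour antibiotic that is used to cause skin fibrosis as a model of systemic sclerosis (bleomycin), and mice given bleomycin together with nitrate, which the study's title describes as topical (nitrate). Strain, sex, age, dose, route of bleomycin, time of sampling and the number of animals behind each library are not given in the sources used here. Nothing there says that libraries came from separate animals, so each p-value below measures only the spread between libraries, which may be technical. The study asked how nitrate alters gene expression in bleomycin-treated skin.

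As background, these receptors sit in the cell membrane and pass a signal to heterotrimeric G proteins when a metabolite binds. Most couple to inhibitory G proteins, lowering cyclic AMP and steering migration, whereas the proton sensor Gpr65 raises cyclic AMP and P2ry6 releases calcium. In skin they are known from resident and incoming leukocytes, although Hcar2 is also abundant in fat cells and Gpr35 in gut epithelium, so their RNA in whole skin can come from more than 1 cell type.

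The libraries held 15804050 to 18352592 reads recovered from the deposited values. Summed over 8 pan-leukocyte genes, the level ranged from 79.7 to 138.8 FPKM in control, from 211.8 to 302.0 in bleomycin and from 48.3 to 140.0 in nitrate skin. The 10 neutrophil markers summed to 14.9 to 37.7, 476.9 to 3240 and 23.6 to 185.4 FPKM in the same order, while Ly6g, which defines mouse neutrophils, was at 0 in every control library and averaged 0.0217 FPKM in bleomycin and 0.0578 in nitrate skin. The 12 monocyte and macrophage markers summed to 442.4 to 680.2, 1041 to 1912 and 325.4 to 853.1 FPKM. Hair follicle genes varied within groups, from 3.61 to 2111 FPKM in control, 48.2 to 3461 in bleomycin and 1768 to 11340 in nitrate skin. In bulk tissue, fewer cells of a type and less RNA per cell cannot be told apart. Keratinocyte markers summed to 2361 FPKM or more in every library, and none of the 5 B and plasma cell or 5 eosinophil markers reached the 1 FPKM filter.

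Promoter sequence was available for 5 of the 7 genes. The 250 bases before the annotated start are shown for Gpr35, the gene with the widest separation between groups, for Gpr183, which came next, and for Ptafr, whose groups overlapped. The sequences are from RefSeq on build GRCm38.p6, read 5′ to 3′ on the strand of the gene, with the start of transcription just after the last base. Capitals mark matches on either strand to 4 short motifs of factors that act in myeloid cells. These were GAGGAA for ETS factors such as PU.1, TGANTCA for AP-1, TTGCNNAA for C/EBP factors and GGGNNTTCC for NF-kappa-B. The motifs were chosen after the windows had been seen, and none of the matches printed overlaps another. RefSeq gives Gpr35 a pair of starts, at chr1:92972869-92973118 (plus strand) for the first window and chr1:92978653-92978902 for the second. The windows of Gpr183 and Ptafr lie at chr14:121965194-121965443 (minus strand) and chr4:132563817-132564066 (plus strand).
Gpr35 start 1: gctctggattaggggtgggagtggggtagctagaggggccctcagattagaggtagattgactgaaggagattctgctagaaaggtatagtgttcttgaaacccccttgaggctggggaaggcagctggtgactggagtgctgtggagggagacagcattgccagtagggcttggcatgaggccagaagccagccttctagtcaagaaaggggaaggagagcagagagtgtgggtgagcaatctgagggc
Gpr35 start 2: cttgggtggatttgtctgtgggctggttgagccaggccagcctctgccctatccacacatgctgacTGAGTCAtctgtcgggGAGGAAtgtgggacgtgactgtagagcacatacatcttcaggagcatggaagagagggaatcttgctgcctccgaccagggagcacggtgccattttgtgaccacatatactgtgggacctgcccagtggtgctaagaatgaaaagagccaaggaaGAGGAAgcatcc
Gpr183: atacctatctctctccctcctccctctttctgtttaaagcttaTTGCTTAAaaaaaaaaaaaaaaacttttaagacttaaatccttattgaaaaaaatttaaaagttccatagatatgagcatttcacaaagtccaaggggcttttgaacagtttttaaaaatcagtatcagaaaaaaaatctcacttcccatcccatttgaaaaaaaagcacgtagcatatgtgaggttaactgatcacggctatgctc
Ptafr: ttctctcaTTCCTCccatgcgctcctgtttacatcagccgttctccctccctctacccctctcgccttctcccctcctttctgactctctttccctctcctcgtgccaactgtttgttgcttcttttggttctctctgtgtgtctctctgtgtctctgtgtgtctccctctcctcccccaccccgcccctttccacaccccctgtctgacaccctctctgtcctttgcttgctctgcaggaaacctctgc
The first Gpr35 window holds none of the 4 motifs. The second holds GAGGAA beginning 168 and 12 bases before the start and TGANTCA beginning 184 bases before it. Gpr183 holds TTGCNNAA at 207 bases, next to a run of A, and Ptafr holds the reverse complement of GAGGAA at 242 bases. Of the windows not printed, that of Gpr65 holds the reverse complement of GAGGAA at 48 bases and that of Gpr84 holds no match. Among all 32851 RefSeq promoter windows of that length, 23.3% hold GAGGAA, 6.75% TGANTCA, 9.56% TTGCNNAA and 4.98% GGGNNTTCC. A match is a run of letters and not a measured binding site. The table gives 1 level per gene, so the values below do not separate the starts of Gpr35.

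Gpr35 answers to kynurenic acid and to a breakdown product of serotonin, and is known from neutrophils, monocytes, mast cells and gut epithelium. The gene (ENSMUSG00000026271, build mm10, chromosome 1, 92950865 to 92986391, plus strand) has 6 transcripts in GENCODE M21. Its levels were 1.0002, 0.479 and 0.832 FPKM in the control libraries 1 to 3. The bleomycin libraries had 7.02, 5.55 and 6.43 FPKM, and the nitrate libraries 2.42, 1.86 and 1.99. All 3 groups stood apart: every bleomycin library was above every nitrate library, and every nitrate library above every control library.

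The mean of Gpr35 was 0.770 ± 0.266 FPKM in control (SD, n = 3, as for all means below), 6.33 ± 0.743 in bleomycin and 2.09 ± 0.294 in nitrate skin. The bleomycin mean was 8.22 times the control mean and 3.03 times the nitrate mean, and the nitrate mean was 2.71 times the control mean. On the log2(FPKM + 1) scale the differences were 2.06 ± 0.15 (standard error) for bleomycin minus control, -1.25 ± 0.15 for nitrate minus bleomycin and 0.81 ± 0.15 for nitrate minus control. That scale shrinks differences of genes near 1 FPKM. On the recovered reads, scaled to plain read totals, the bleomycin minus control difference was 3.22 and the nitrate minus control difference 1.66. Those totals are not the library sizes behind the FPKM, so the scaling differs too. The reads behind these levels were 74, 39 and 70 in control, 554, 465 and 549 in bleomycin, and 215, 165 and 183 in nitrate libraries.

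**Figure D1:**
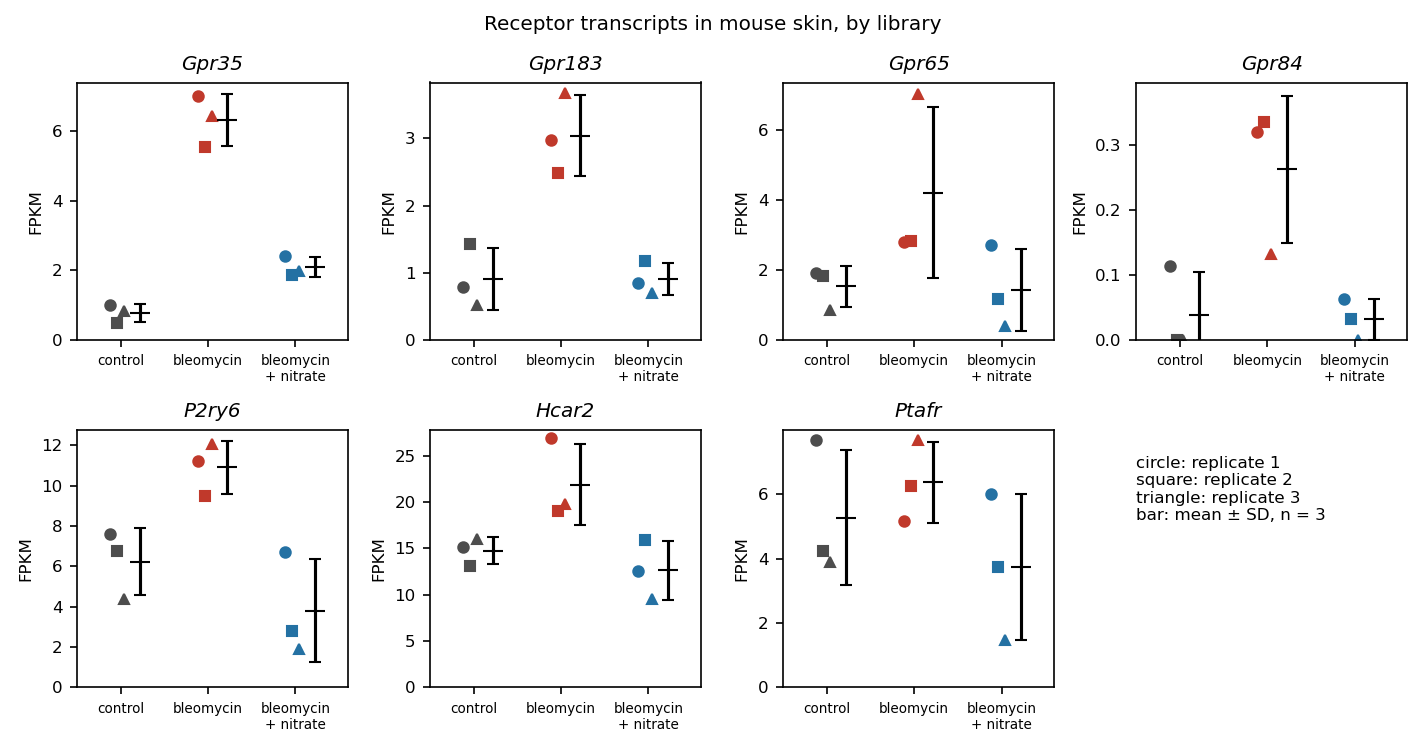
FPKM of the 7 receptors in each of the 9 libraries, 1 panel per gene, with points for libraries, horizontal lines for group means and vertical bars for 1 SD (n = 3). Gpr35 is the gene with 3 separate groups, at 0.479 to 1.0002, 5.55 to 7.02 and 1.86 to 2.42 FPKM.

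Gpr183 binds oxysterols and guides B cells, T cells and dendritic cells within lymphoid tissue. The gene (ENSMUSG00000051212, chromosome 14, 121952551 to 121965195, minus strand) lies inside the span of Ubac2 on the other strand and shares 0 exon bases with it. Its levels were 0.793, 1.42 and 0.518 FPKM in control, 2.97, 2.48 and 3.67 in bleomycin, and 0.849, 1.17 and 0.692 in nitrate libraries. Bleomycin libraries lay above all others, and the nitrate libraries lay within the control range. The means were 0.911 ± 0.463, 3.04 ± 0.5997 and 0.904 ± 0.245 FPKM. The differences on the log2(FPKM + 1) scale were 1.10 ± 0.21 for bleomycin minus control, -1.08 ± 0.21 for nitrate minus bleomycin and 0.01 ± 0.21 for nitrate minus control. On the recovered reads the first 2 of these were 1.95 and -1.72. The 8 T cell markers summed to 13.04 to 16.5 FPKM in control, 34.7 to 47.6 in bleomycin and 26.0 to 28.5 in nitrate skin, and the 9 dendritic and Langerhans cell markers to 181.1 to 307.0, 470.8 to 708.7 and 218.0 to 385.2. The 5 B and plasma cell markers, none of which passed the filter, summed to 0.79 to 1.01, 1.45 to 8.62 and 0.311 to 1.87 FPKM in the same order. The part of these cell types in the level of Gpr183 was not tested.

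Gpr65 senses extracellular protons and is expressed across lymphoid and myeloid cells. The gene (ENSMUSG00000021886, chromosome 12, 98268635 to 98276644, plus strand) shares 511 exon bases with the antisense gene Gm47566, which is listed at 0 in every library. Whether counting used strand is not given, so reads of such a pair cannot be told apart. Its control levels were 1.90, 1.81 and 0.862 FPKM, its bleomycin levels 2.79, 2.82 and 7.02, and its nitrate levels 2.71, 1.16 and 0.406. The highest bleomycin library stood well above the other two, and the highest nitrate library lay just below the lowest bleomycin library. The difference was 0.98 ± 0.41 for bleomycin minus control and 0.62 without bleomycin library 3. It was -1.12 ± 0.41 for nitrate minus bleomycin and -0.14 ± 0.41 for nitrate minus control, which became 0.19 without nitrate library 3.

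Gpr84 is a receptor for medium-chain fatty acids that myeloid cells make more of under inflammatory stimulation. The gene (ENSMUSG00000063234, chromosome 15, 103308235 to 103310612, minus strand) shares 681 exon bases with the antisense gene Gm49482, listed at 0 in every library. It was covered by 3, 0 and 0 reads in control, 9, 10 and 4 in bleomycin, and 2, 1 and 0 in nitrate libraries. Each bleomycin library held more reads than any other library, at 0.131 to 0.335 FPKM, all below the filter. A library at 0 allows up to 3 reads, so these counts give no usable fold.

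P2ry6 binds UDP, a nucleotide that stressed cells release, and is known for driving uptake of debris by macrophages and microglia. The gene (ENSMUSG00000048779) lies on chromosome 7, 100937630 to 100974649, minus strand. Levels were 7.59, 6.74 and 4.36 FPKM in control, 11.2, 9.48 and 12.04 in bleomycin, and 6.70, 2.80 and 1.91 in nitrate libraries. All bleomycin libraries lay above the rest, and nitrate library 1 fell within the control range while the other two were below it. On the log2(FPKM + 1) scale P2ry6 had the most negative nitrate minus bleomycin difference of the 6 receptors in the fit, at -1.43 ± 0.34. By the ratio of means it did not lead. The bleomycin mean was 2.87 times the nitrate mean for P2ry6, against 3.36 for Gpr183, 3.03 for Gpr35 and 2.95 for Gpr65. The ratio was 1.73 for Hcar2 and 1.70 for Ptafr. The bleomycin minus control difference was 0.74 ± 0.34. For nitrate minus control it was -0.69 ± 0.34, which moved to -1.09 without nitrate library 1 and to -0.39 without nitrate library 3.

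Hcar2 is the receptor for niacin and for the ketone body beta-hydroxybutyrate, and is known from adipocytes, macrophages, neutrophils and Langerhans cells. The gene (ENSMUSG00000045502) lies on chromosome 5, 123863570 to 123865499, minus strand. It had the highest level of the 7, at 15.2, 13.1 and 16.0 FPKM in control, 26.9, 19.0 and 19.7 in bleomycin, and 12.5, 15.9 and 9.53 in nitrate libraries. The bleomycin libraries were again above the rest, by a smaller margin, and the control and nitrate ranges overlapped. The differences were 0.53 ± 0.20, -0.76 ± 0.20 and -0.23 ± 0.20 for bleomycin minus control, nitrate minus bleomycin and nitrate minus control. The 6 adipocyte markers summed to 379.1 to 619.1 FPKM in control, 225.3 to 265.0 in bleomycin and 64.5 to 226.1 in nitrate skin. The 6 keratinocyte markers summed to 2361 to 4120, 6686 to 10135 and 5166 to 8102 FPKM in the same order. The part of either cell type in the level of Hcar2 was not tested.

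Ptafr is the receptor for platelet-activating factor, a phospholipid that activates neutrophils, macrophages and keratinocytes. The gene (ENSMUSG00000056529) lies on chromosome 4, 132564067 to 132582683, plus strand. Levels were 7.68, 4.24 and 3.91 FPKM in control, 5.16, 6.25 and 7.69 in bleomycin, and 5.99, 3.75 and 1.47 in nitrate libraries. No pair of groups separated: control library 1 matched the highest bleomycin library. The bleomycin minus control difference was 0.27 ± 0.37. It ranged from 0.11 without control library 3 to 0.53 without control library 1, and was 0.16 without control library 2 and 0.14 without bleomycin library 3. The nitrate minus bleomycin difference was -0.75 ± 0.37, and -0.34 without nitrate library 3. For nitrate minus control it was -0.48 ± 0.37.

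By mean FPKM in bleomycin skin, Hcar2 stood highest at 21.9 ± 4.37, followed by P2ry6 at 10.9 ± 1.31. Ptafr at 6.37 ± 1.27, Gpr35 at 6.33 ± 0.743 and Gpr65 at 4.21 ± 2.43 came next, with ranges that overlapped, and Gpr183 at 3.04 ± 0.5997 overlapped Gpr65. In control skin Gpr35 was the lowest after Gpr84, with a range that overlapped that of Gpr183. In nitrate skin Gpr35 at 2.09 ± 0.294 stood below Hcar2, P2ry6 and Ptafr by mean, and its range overlapped those of P2ry6, Ptafr and Gpr65.

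Counting the receptors whose libraries did not overlap, 6 of 7 were higher in bleomycin than in control skin, all but Ptafr. Over all 14645 genes that passed the filter, which Gpr84 did not, 18.4% were higher without overlap. In nitrate against bleomycin skin the same 6 receptors were lower without overlap, where 11.8% of all genes were. Only Gpr35 was higher without overlap in nitrate than in control skin, where 17.3% of all genes were, and none was lower. Because the receptors were chosen on these values, nothing is read from the excess over those shares. Both comparisons with bleomycin use the same 3 bleomycin libraries, so the higher values in one and the lower values in the other are not separate observations.

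**Figure D2:**
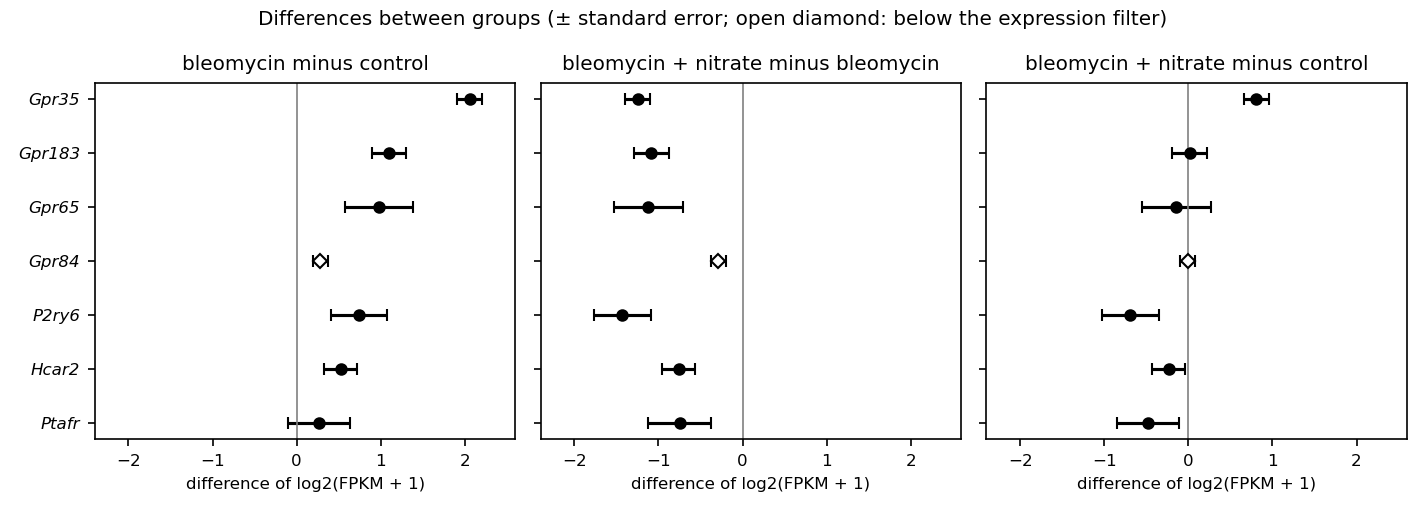
Difference in log2(FPKM + 1) for each receptor in the 3 comparisons, with bars of 1 standard error from the fit to all 9 libraries. Gpr35 is farthest from 0 in bleomycin minus control (2.06) and the farthest above 0 in nitrate minus control (0.81), while Gpr84 is drawn from a fit without the level filter.

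To set the receptors beside the leukocyte RNA in each library, each was divided by the summed FPKM of the 8 pan-leukocyte genes Ptprc, Coro1a, Laptm5, Cd53, Itgb2, Lcp1, Rac2 and Cd52. That sum was 101 ± 32.8 FPKM in control, 243 ± 50.8 in bleomycin and 93.8 ± 45.8 in nitrate skin. Gpr35 amounted to 0.721%, 0.567% and 1.04% of the sum in the control libraries. It was 3.25%, 2.62% and 2.13% in bleomycin and 1.73%, 1.999% and 4.11% in nitrate libraries. Both treated groups were above control without overlap, and they overlapped each other, with means of 2.67 ± 0.560% and 2.61 ± 1.30% against 0.777 ± 0.244%. Gpr35 divided by any single one of the 8 genes gave the same order: higher in bleomycin and in nitrate than in control skin for 8 of 8, and overlapping between bleomycin and nitrate for 8 of 8. Whether cell makeup accounts for the level of Gpr35 was not tested.

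Ptafr ran the other way. It made up 5.53%, 5.01% and 4.90% of the pan-leukocyte sum in control, 2.39%, 2.95% and 2.55% in bleomycin, and 4.28%, 4.03% and 3.05% in nitrate libraries. Bleomycin was lower than control against 8 of the 8 single genes, and nitrate was higher than bleomycin against 4 of 8 and lower than control against 5 of 8. P2ry6 was lower in bleomycin than in control skin relative to the sum, at 4.55 ± 0.598% against 6.30 ± 1.44%, and this held against 3 of 8 single genes. It was also lower in nitrate than in control skin, at 3.92 ± 0.891%, and this held against 5 of 8. Gpr183, Gpr65 and Hcar2 overlapped between all pairs of groups relative to the sum. Gpr183, for example, was 0.968 ± 0.619% in control, 1.25 ± 0.108% in bleomycin and 1.10 ± 0.435% in nitrate skin.

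**Figure D3:**
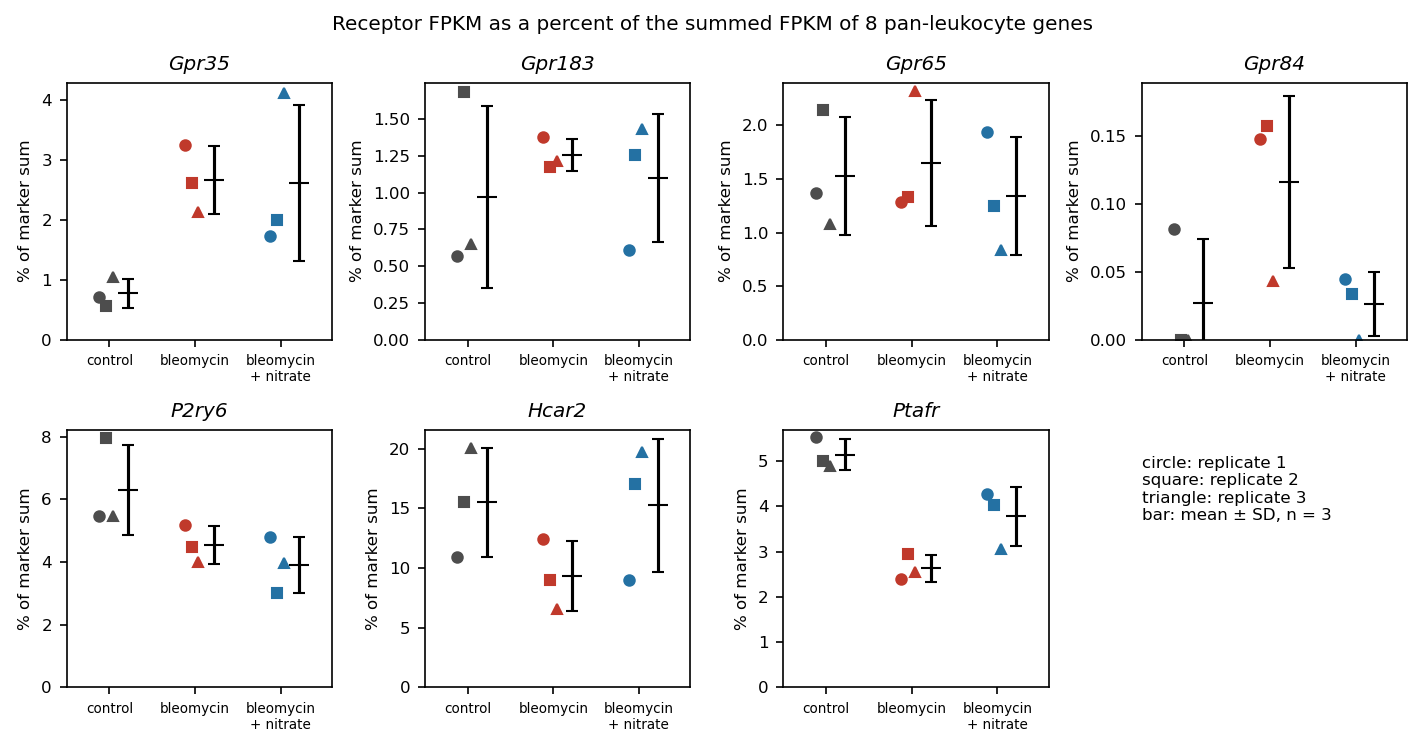
Each receptor as a percentage of the summed FPKM of 8 pan-leukocyte genes in each library, with group means and SD (n = 3). Gpr35 is higher in both treated groups than in control, Ptafr and P2ry6 are lower in both treated groups than in control, and the other panels overlap.

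The comparison depends on the leukocyte type that serves as the yardstick. Relative to the 12 monocyte and macrophage markers, Gpr35 was 0.137 ± 0.0568% in control, 0.478 ± 0.123% in bleomycin and 0.428 ± 0.167% in nitrate skin, with both treated groups above control. Relative to the T cell, the dendritic and Langerhans cell, and the mast cell markers, bleomycin was above control, but nitrate overlapped control. Against the T cell markers the values were 5.33 ± 2.21%, 15.7 ± 3.93% and 7.82 ± 1.40%, with nitrate below bleomycin. Relative to the 10 neutrophil markers it was lower in bleomycin than in control, at 0.892 ± 0.588% against 3.08 ± 0.377%. Nitrate skin, at 4.02 ± 3.9% of the neutrophil marker sum, overlapped both groups. S100a8 and S100a9, which stressed keratinocytes make too, dominate that sum, and bleomycin library 1 stands apart in both. S100a8 had 1389, 198.0 and 198.0 FPKM and S100a9 1792, 231.9 and 258.0 in the bleomycin libraries 1 to 3. The 7 stress keratinocyte markers summed to 206.0 to 394.4 FPKM in control, 2147 to 5711 in bleomycin and 1113 to 2071 in nitrate skin. Relative to that sum Gpr35 was 0.27 ± 0.08% in control, 0.17 ± 0.11% in bleomycin and 0.14 ± 0.03% in nitrate skin. Bleomycin overlapped both other groups, and nitrate was lower than control. In FPKM, the stress keratinocyte sums stood in the same group order as Gpr35 without overlap. So did the T cell marker sums given above and the neutrophil receptor Cxcr2. The sum of all 10 neutrophil markers did not: nitrate library 3, at 23.6 FPKM, lay within the control range of 14.9 to 37.7. Among receptors that mark neutrophils, Cxcr2 had 0.451, 0 and 0.340 FPKM in control, 9.74, 6.16 and 5.38 in bleomycin, and 1.18, 2.20 and 0.724 in nitrate libraries. The 6 mast cell markers summed to 56.4 to 105.9, 175.7 to 232.7 and 93.9 to 181.4 FPKM in control, bleomycin and nitrate skin. The part of neutrophils, mast cells and keratinocytes in the level of Gpr35 was not tested.

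**Figure D4:**
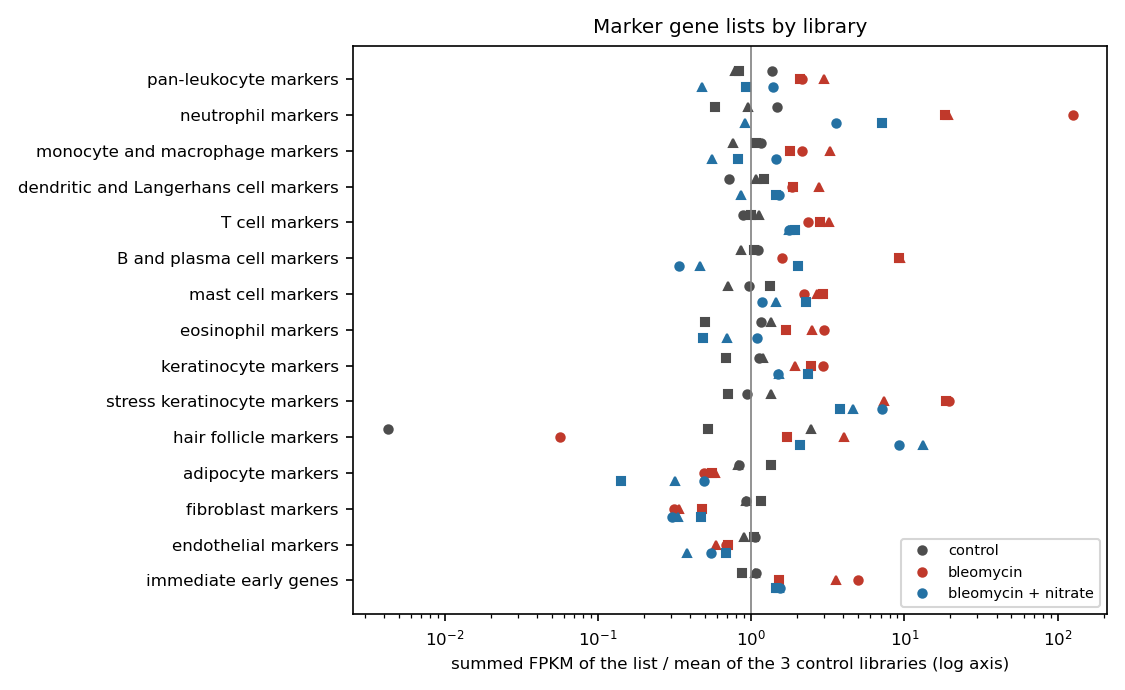
Summed FPKM of each marker list in each library, divided by the mean of the 3 control libraries, on a log axis, with circles, squares and triangles for libraries 1, 2 and 3. Pan-leukocyte, neutrophil, macrophage and stress keratinocyte sums are highest in the bleomycin libraries, and the hair follicle sums spread widely within the control and bleomycin groups.

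The genes nearest to each receptor in pattern over the 9 libraries were found by the root-mean-square distance between standardised log2(FPKM + 1) profiles, where 0 means the same shape. The median distance to all tested genes was 1.41 for Gpr35. Its nearest gene was Pmaip1, the p53 target Noxa, at 0.125, with 1.48, 1.28 and 2.07 FPKM in control, 13.5, 9.88 and 11.2 in bleomycin, and 4.70, 3.45 and 3.81 in nitrate libraries. Stfa2, Cd44, Pgam1 and Gria3 followed at 0.176 to 0.217. None of the 5 belongs to a leukocyte marker list used here. The same holds for the nearest genes of every other receptor below, so it does not set Gpr35 apart. All genes were measured in the same 9 libraries, whose cell type marker sums differ, so a small distance is a description only.

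The nearest gene to P2ry6 was Tlr8, an endosomal RNA sensor of myeloid cells, at 0.118, followed by Irak4, Cfp, Lrrc25 and Kmo. Gpr65 was nearest to Gbgt1 at 0.207, then Cd72, Tnfrsf1b, Clec5a and Apobr. Gpr183 was nearest to Crem at 0.261, then Bgn, Pfkl, Mcemp1 and Ccr8. Ptafr was nearest to Gm12250 at 0.195, then Gm8995, Tapbp, Btk and Parp14, and Hcar2 to Usp4 at 0.302. Among the 6 receptors that passed the filter none was the nearest gene of another: the closest pair, Gpr65 and P2ry6, lay at 0.486, and Gpr183, the closest of them to Gpr35, took place 561 in its order at 0.599.

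Receptors of the same kinds that are not among the 7 were listed by family: 31 other metabolite, nucleotide and proton receptors, 26 lipid mediator receptors and 8 peptide chemoattractant receptors. Of these 65 genes 47 were tested and 18 did not pass the filter. Fpr1 reached the filter through the bleomycin libraries alone, so that it had to differ, and it is left out of the counts. Of the other 46, 4 rose and 2 fell in bleomycin against control skin (limma, Benjamini-Hochberg adjusted p under 0.05), or 13.04%. Over all genes 8.43% were called, 4.74% higher and 3.69% lower, and 8.03% without genes that passed through 1 group alone. The median difference of the 46 was 0.28, with 26 above 0, against a median of 0.01 over all genes.

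Ltb4r1 and Ltb4r2, the high and low affinity receptors for leukotriene B4, both rose. Ltb4r1 had 10.2, 4.95 and 10.3 FPKM in control, 24.6, 27.9 and 20.1 in bleomycin, and 17.4, 11.98 and 11.1 in nitrate libraries, and all bleomycin libraries were above the others. Its difference was 1.46 ± 0.27 (adjusted p = 0.0186), and that of Ltb4r2 was 1.07 ± 0.25 (adjusted p = 0.0364). Gpr132, a lipid and lactate sensor related to Gpr65, rose by 1.29 ± 0.28 (adjusted p = 0.0278) and S1pr3, a sphingosine 1-phosphate receptor, by 0.90 ± 0.21 (adjusted p = 0.0389). Fpr1, the formyl peptide receptor of neutrophils, had 1.85, 1.09 and 4.20 FPKM in bleomycin libraries, against 0.0898 to 0.198 in control, and is given with no test.

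The 2 receptors that fell are known from the stroma. Lpar1, a lysophosphatidic acid receptor of fibroblasts, had 23.6, 18.2 and 18.0 FPKM in control and 7.15, 8.57 and 8.79 in bleomycin libraries, a difference of -1.18 ± 0.25 (adjusted p = 0.0273). S1pr1, a sphingosine 1-phosphate receptor of endothelium and lymphocytes, had 33.5, 32.3 and 31.6 FPKM in control and 15.0, 17.4 and 18.5 in bleomycin libraries, a difference of -0.90 ± 0.23 (adjusted p = 0.0488). For both genes the groups did not overlap. Of the fibroblast markers 2 of 6 fell, and of the endothelial markers 1 of 5, where 3.69% of all genes did. Their median differences were -0.82 and -0.50, and their part in these differences was not tested.

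These calls rest on few libraries. Without control library 1, 2 or 3, or bleomycin library 1, 2 or 3, the number of the 46 receptors called was 1, 1, 1, 0, 0 and 3. Ltb4r1 was called in 4 of these 6 fits. Without both control library 1 and bleomycin library 1, the libraries with the least hair follicle RNA in their groups, none was called, while 14 of 47 with Fpr1 included had an unadjusted p under 0.05.

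In nitrate against bleomycin skin none of the receptors was called by limma and none on the recovered reads, and 14 of 46 had an unadjusted p under 0.05. Over all genes limma also called 0.0%, and 17.9% had an unadjusted p under 0.05. The median difference of the 46 was -0.25, with 76.1% below 0, where 50.4% of all genes were below 0. S1pr3 had the smallest p of the lipid receptors, at -1.18 ± 0.21 (adjusted p = 0.0894), with 15.3, 13.8 and 9.03 FPKM in bleomycin and 6.02, 3.60 and 5.50 in nitrate libraries. Gpr132 stood at -1.01 ± 0.28 (adjusted p = 0.137).

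In nitrate against control skin 1 receptor rose and 4 fell, or 10.9% of 46. Over all genes 8.53% were called, 3.63% higher and 4.9% lower, and 8.28% without genes that passed through 1 group alone. P2rx7, the ATP-gated channel upstream of the inflammasome, rose by 0.59 on the log2 scale (adjusted p = 0.0456). Its levels were 3.07, 3.60 and 2.17 FPKM in control and 4.74, 4.599 and 5.26 in nitrate libraries. Ptger3, a prostaglandin E receptor, was lower at -1.81 (adjusted p = 0.0192), as were Lpar1 at -1.37 (adjusted p = 0.0226), S1pr1 at -1.22 (adjusted p = 0.0245) and the lactate receptor Hcar1 of fat cells at -1.36 (adjusted p = 0.0435). Without control library 1 or 2 none of the 46 was called. The count was 3 without control library 3, and 3, 9 and 1 without nitrate library 1, 2 and 3. It was 4, 3 and 4 without bleomycin library 1, 2 and 3, and the counts of 4 include Ptger4, which the main fit did not call. With 1 library left out, P2rx7 kept its call only without nitrate library 2. Hcar1 kept its call only without nitrate library 1 or 2.

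**Figure D5:**
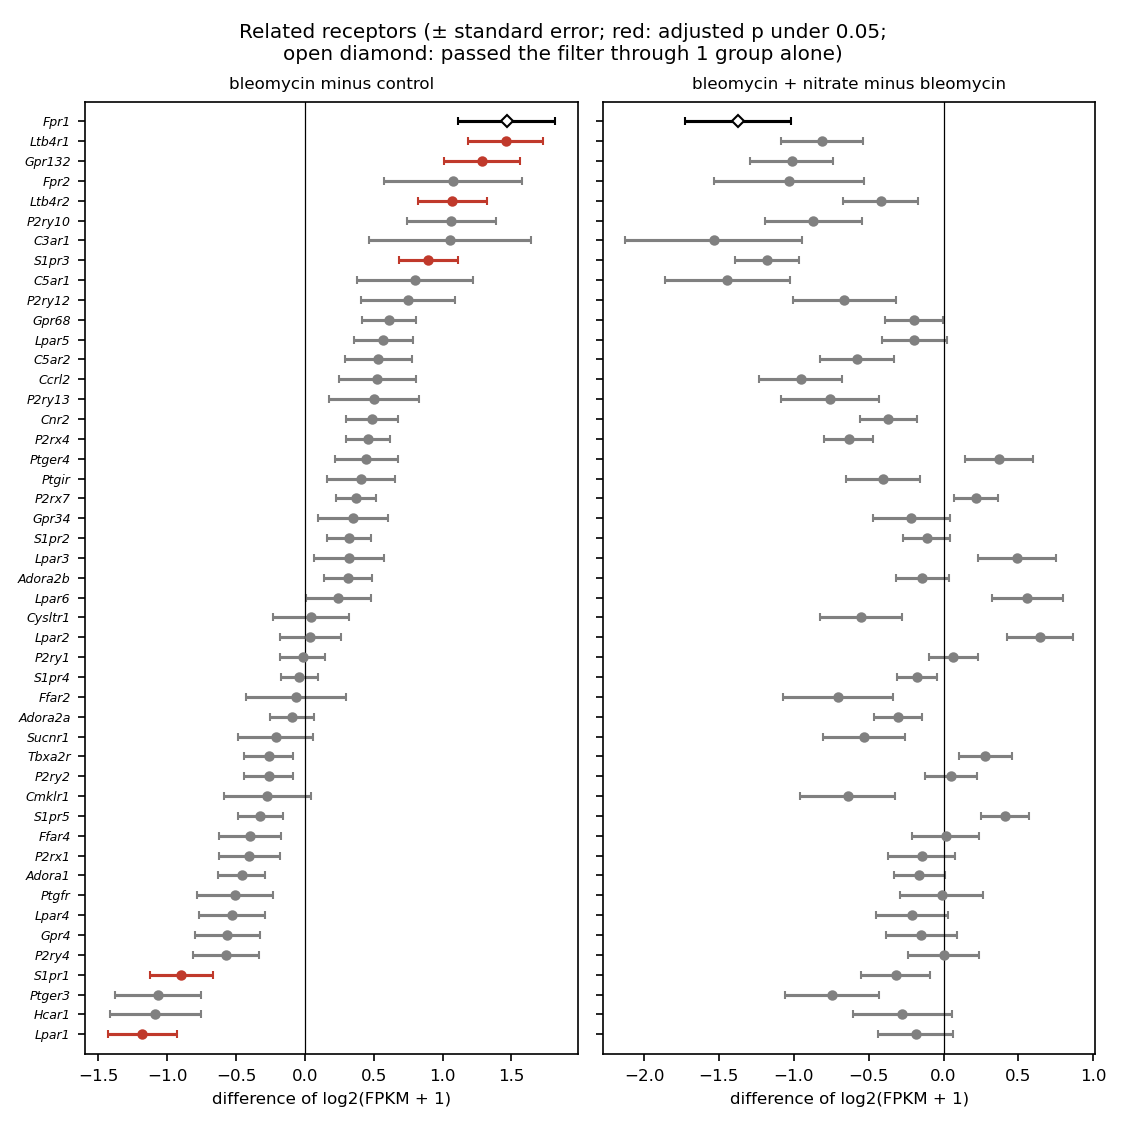
Difference in log2(FPKM + 1) for the 47 related receptors in bleomycin minus control and in nitrate minus bleomycin, ordered by the first, with bars of 1 standard error and called genes in red. The open diamond is Fpr1, which passed the filter through the bleomycin libraries alone. Of the others Ltb4r1 is farthest above 0 (1.46) and Lpar1 farthest below 0 (-1.18) in bleomycin minus control, and no gene is called in nitrate minus bleomycin.

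Genes that make or remove the ligands of the 7 receptors were also listed. Of 35 tested, Bdh2, Car9 and Kmo passed the filter through 1 group alone and are left out of the counts. Of the other 32, 3 rose and 2 fell in bleomycin against control skin, or 15.6%, against 8.03% of all genes counted the same way. On both sides of platelet-activating factor, the ligand of Ptafr, Lpcat2, which makes it, rose by 0.96 (adjusted p = 0.00886) and Pla2g7, which degrades it, rose by 1.64 (adjusted p = 0.0096). Pla2g7 had 7.95, 4.65 and 3.43 FPKM in control, 18.2, 16.8 and 18.9 in bleomycin, and 11.9, 7.97 and 8.18 in nitrate libraries. All bleomycin libraries were above the rest, and Pla2g7 was called without any single control or bleomycin library, as was Lpcat2. Without both control library 1 and bleomycin library 1 Pla2g7 alone was called among the enzymes and G protein genes.

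Of 5 ketone body genes, which bear on the ligand of Hcar2, Oxct1, which uses ketone bodies, fell by 0.66 (adjusted p = 0.0369). Bdh2 had 2.08, 2.11 and 1.91 FPKM in control and 0.177 to 0.547 in bleomycin libraries, so that it reached 1 FPKM only in control and is given with no test. Enpp3, an ectoenzyme that cleaves extracellular nucleotides, fell by 0.80 (adjusted p = 0.0191). Of the carbonic anhydrases that acidify the space around cells, Car12 rose by 1.57 (adjusted p = 0.0144). Car9 passed the filter only through the bleomycin libraries, at 2.82, 1.58 and 1.72 FPKM against 0.653 to 0.724 in control, and is given with no test. Without single control or bleomycin libraries Oxct1 and Enpp3 lost their calls in each of the 6 fits. Car12 lost its call only without control library 2.

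None of the 3 tested oxysterol enzymes was called in bleomycin against control skin, where 1 had an unadjusted p under 0.05, as 26.9% of all genes did. Ch25h, which makes the precursor of the Gpr183 ligand, had 1.45, 1.94 and 1.02 FPKM in control, 2.09, 1.88 and 2.81 in bleomycin, and 1.13, 0.364 and 0.895 in nitrate libraries. Its nitrate minus bleomycin difference was -0.87 (adjusted p = 0.126). Of 12 tryptophan and kynurenic acid genes, which bear on the ligands of Gpr35, 4 passed the filter and none of these was called in any comparison. In bleomycin against control skin none of the 4 had an unadjusted p under 0.05 either. Ido1, which opens the kynurenine route, stayed at or below 0.336 FPKM in every library. Tph1, which makes serotonin, was below the filter with 41, 336 and 138 reads summed over the control, bleomycin and nitrate libraries. Tdo2, the other enzyme that opens that route, was below it with 232, 18 and 6 reads. In a fit with no filter both were called in bleomycin minus control, Tph1 at 0.87 (adjusted p = 0.0296) and Tdo2 at -1.01 (adjusted p = 0.0271), and Tdo2 in nitrate minus control at -1.09 (adjusted p = 0.0366). Of 5 medium-chain fatty acid genes, which bear on the ligand of Gpr84, 3 were tested and none was called in any comparison. Olah, which was below the filter, was called in the fit with no filter in bleomycin minus control, at 0.85 (adjusted p = 0.0271).

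Of 31 G protein and downstream genes Rgs1 and Plcb2 passed the filter through the bleomycin libraries alone. Of the other 29, 1 rose and none fell in bleomycin against control skin, or 3.45%, against 8.03% of all genes counted the same way. Gna15, a G protein subunit of blood cells and epithelium, rose by 0.72 (adjusted p = 0.0273), from 7.76 ± 0.993 to 13.5 ± 1.69 FPKM. Rgs1, which shortens signals from inhibitory G proteins in leukocytes, had 0.414, 0.188 and 0.248 FPKM in control, 2.38, 1.45 and 2.90 in bleomycin, and 0.478, 0.841 and 0.363 in nitrate libraries, and is given with no test. Gna15 was not called without control library 1, control library 2, bleomycin library 1 or bleomycin library 3.

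In nitrate against bleomycin skin no ligand enzyme or G protein gene was called by limma or on the recovered reads, with 13 of 32 enzymes and 11 of 29 G protein genes at an unadjusted p under 0.05, where 17.9% of all genes were. Of the G protein genes 93.1% had estimates below 0, and of all genes 50.4%. In nitrate against control skin 3 of 32 enzymes rose and 2 fell, or 15.6%, against 8.28% of all genes counted the same way. Lpcat2, Bdh1 and Car12 were higher and Enpp3 and Ldha lower. Bdh1, which interconverts ketone bodies, had 2.66, 2.85 and 5.37 FPKM in control and 12.7, 7.64 and 16.1 in nitrate libraries, a difference of 1.496 (adjusted p = 0.028). Without control library 1 or 2 none of the 5 was called, and without control library 3 the call remained for Bdh1 and Car12. Without nitrate library 1 or 3 it remained for Car12 alone. Without bleomycin library 1 Lpcat2 lost its call, and without bleomycin library 3 Enpp3 and Ldha did. Without nitrate library 2 all 5 were called, with 12 further enzyme and G protein genes.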

How the data were processed

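Per the labels, total RNA from mouse skin was made into mRNA sequencing libraries, and mm10 is named in the submitters' processing notes. The deposited table gives the authors' FPKM, 1 value per gene and library, and no other sample columns. For aligner, counter and strand setting, the answer is not given in the sources used here. Each value was multiplied by gene length and divided by a step fitted for each library, to give whole reads. Within a tolerance of 0.01 this held for 100.0% of the 18068 to 20461 values checked per library. Values of 0 and the highest counts were not checked. The recovered reads were 15804050 to 18352592 per library, which estimates depth although the deposited unit is not a count. The library size behind the FPKM was not the plain read total. It was 0.916 to 0.967 times the recovered reads in control, 0.995 to 1.07 in bleomycin and 1.03 to 1.09 in nitrate libraries. FPKM was tested as log2(FPKM + 1) in limma 3.58.1 (R 4.3.3; moderated, with trend and robust settings), in 1 fit of 3 group means over 14645 genes with at least 1 FPKM in at least 3 of 9 libraries, with Benjamini-Hochberg adjusted p under 0.05 over all of them. The fit was tested on simulated data.

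The receptors and all 26 gene lists were chosen with earlier results of these data known. Named genes were all 7 receptors, the called genes of each receptor, enzyme and G protein list (up to 8) or the 2 with the smallest p, and the 5 genes nearest in pattern to each receptor that passed the filter. All 253 listed genes were found. Alternatives were 2 other pseudocounts, 2 other filters, 2 other scalings, fitting only the compared groups, a replicate block and leaving out each library. After seeing the data, a fit of the recovered reads (voom) and one without control 1 and bleomycin 1 were added. The voom fit took plain read totals as library sizes, in place of those behind the FPKM. Promoters came from RefSeq (GRCm38.p6), matched by symbol. Intervals and floors on reads cover counting error only.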

Additional observations from a re-analysis of the deposited data

How the results depend on the processing

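Across 333 recomputed values the 6 receptors in the fit kept the sign of each difference, except in nitrate minus control. There 6 values changed sign. The small difference of Gpr65 became 0.19 without nitrate 3. That of Gpr183 lay between -0.14 and -0.02 without control 1, control 3 or nitrate 2, and without both control 1 and bleomycin 1. It was -0.03 after quantile normalization. In 14 values the move exceeded the spread between libraries, all in Gpr35, Gpr183 or Gpr65 under a smaller pseudocount or the recovered reads. With a pseudocount of 0.1 the Gpr35 differences were 2.93, -1.56 and 1.37 for bleomycin minus control, nitrate minus bleomycin and nitrate minus control. The 27 called differences of other named genes lost their call in 183 of 503 recomputed values (36.4%), and none of them reversed.

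For bleomycin minus control, 1234 genes were called (694 higher, 540 lower). There were 676 with no filter, 747 at a mean of at least 5 FPKM, 334 to 1539 with 1 library left out and 137 without control 1 and bleomycin 1. On the recovered reads 847 were higher and 395 lower. For nitrate minus bleomycin the count was 0, or 10 with a replicate block and 0 to 37 with 1 library left out. For nitrate minus control it was 1249 (532 higher, 717 lower), 294 with no filter, 306 from the compared groups alone, 45 to 2882 with 1 library left out and 23 without control 1 and bleomycin 1. On the recovered reads 1038 were higher and 581 lower.

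Of the 47 related receptors, 7 with Fpr1 were called in bleomycin minus control: 2 with no filter (Ltb4r1 and Gpr55), 2 with a replicate block, 0 to 8 with 1 library left out and 0 without control 1 and bleomycin 1. In nitrate minus control 5 were called: 1 with no filter, 3 at a mean of at least 5 FPKM, 0 from the compared groups alone, 9 on the recovered reads, 0 to 9 with 1 library left out and 0 without control 1 and bleomycin 1. Fits with a library left out hold fewer libraries, and those with no filter more genes. The fit of the recovered reads used plain read totals as library sizes, unlike the FPKM. For it and the other settings the cause was not tested. Correlations of the deviations of same-numbered libraries ran from -0.04 to 0.52 for bleomycin with control, from -0.39 to 0.34 for nitrate with bleomycin and from 0.01 to 0.44 for nitrate with control. They exceeded 0.1 in 2, 1 and 2 of 3 pairs. The highest correlation was in a same-numbered pair for bleomycin with control (0.52) and nitrate with control (0.44). For nitrate with bleomycin it was in a different-numbered pair, nitrate 2 with bleomycin 1 (0.58). The values are mixed, so the main fit did not pair libraries by number, and a replicate block was an alternative. Depth limits Gpr84, with 29 reads in all libraries together.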
